A study of Mus musculus with 14 samples.

Results

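The 9 Pax genes of the mouse, Pax1 to Pax9, were described by the H3K27me3 sites at and around them. The members were taken by symbol, and they are 9 of the 21938 protein-coding genes annotated on the assembled chromosomes (GRCm38.p6, GENCODE M21). For each gene, the sites of 1 deposited list that overlapped 3 windows were taken: 1 kb either side of any of its start sites, the gene body, and the gene with 50 kb on either side. The list holds 153983 sites, and 206 of them lay in the widest of the 3 windows of a Pax gene. The family was picked with the sites of these genes already known, so the numbers, widths and covered shares below are given as descriptions and no test was made of them.

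The sites come from ChIP-seq of immortalised mouse embryo fibroblasts (iMEF) whose floxed Ash2l can be removed by Cre-ER. In all groups the endogenous Ash2l had been deleted in this way and human ASH2L was supplied from a lentivirus as FKBP-HA2-ASH2L, a fusion that dTAG-13, a PROTAC, sends to degradation. The 12 H3K27me3 libraries were 2 replicates each of the control and of 5 lengths of exposure to dTAG-13 (16 h, 8 h, 4 h, 2 h or 30 min). Of the input libraries, 1 was from the control and 1 from the 16 h cells. The study worked with the clone NG3, so the replicates are cultures of 1 clone and not separate derivations. The study also lists separately the sites that changed against the control at each time point, which were not used here. The list used here unites the sites of all samples and gives only a chromosome, a start and an end. From it, a site cannot be assigned to a time point and a Pax gene cannot be compared between control and treated cells. The read depth behind a site is unknown. Absence of a site therefore does not show absence of the mark, and a site found in a fraction of the cells cannot be told apart from a weaker site in all of them.

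Pax proteins are transcription factors that bind DNA through a paired domain, and part of the family also carries a homeodomain. Each gene is used in a restricted set of embryonic tissues, among them the kidney, eye, somites, neural crest, thyroid, pancreas and B cell lineage, and most of them are silent in other cell types. H3K27me3 is set by Polycomb repressive complex 2 (PRC2) and is known for covering genes of developmental regulators in cells that do not use them, often as a domain that runs across the start site and into the gene.

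All 9 genes had a site within 1 kb of a start site, against 31.5% of all protein-coding genes. This count hides a split in the family. A site of at least 2 kb was found there at 7 of the 9 genes (all genes 16.1%), and the same 7 genes had a site of at least 5 kb (all genes 8.69%). A site of at least 10 kb was present at 6 genes (all genes 3.82%), with Pax4 just under this width, and one of at least 20 kb at 5 (all genes 1.25%). Pax1, Pax2, Pax3, Pax4, Pax5, Pax6 and Pax7 lay under wide sites, whereas Pax8 and Pax9 had only short sites next to their starts. A start position lay inside a site at 7 genes (all genes 21.6%), and every start position did so at 6 of them (all genes 11.3%). Pax8 and Pax9, without any, belong to subfamilies whose other members were covered: Pax9 is the paralogue of Pax1, and Pax8 that of Pax2 and Pax5.

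**Figure D1:**
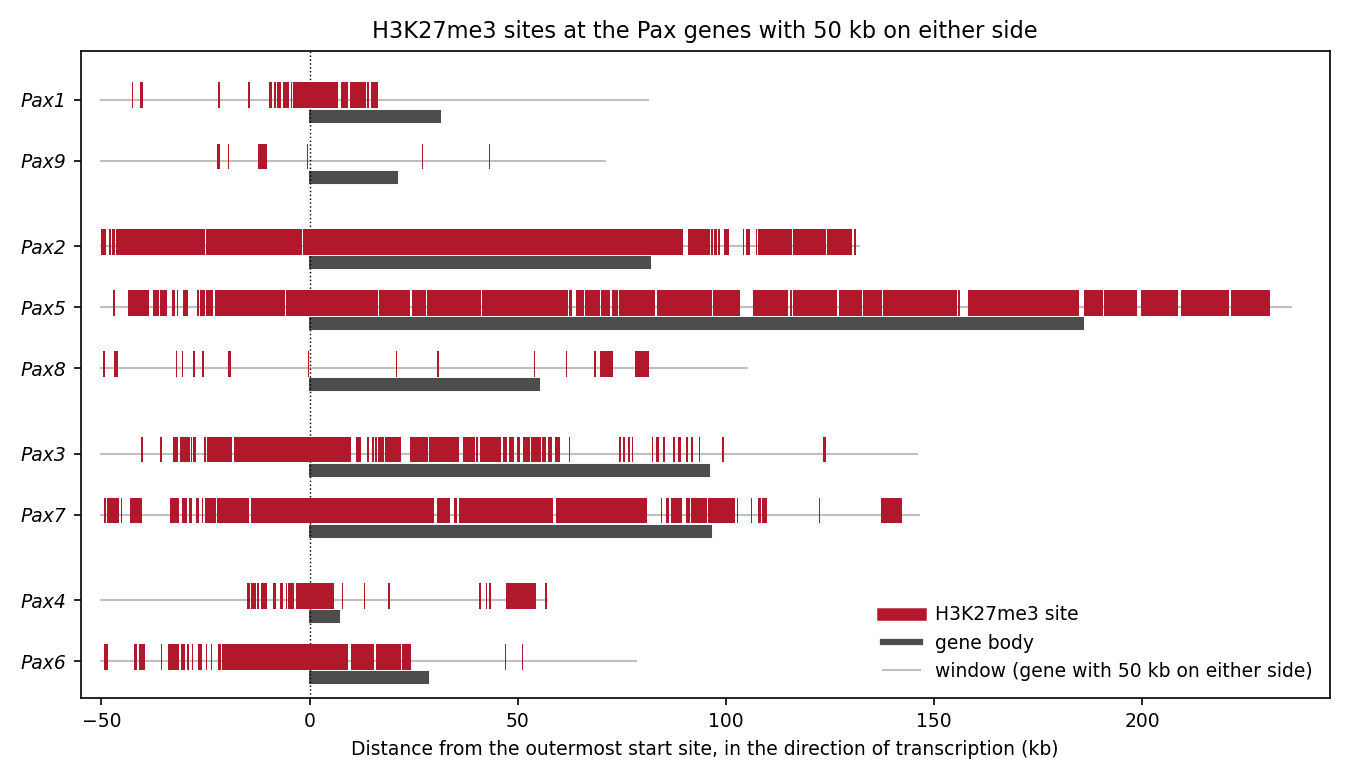
Map of the H3K27me3 sites (red) at the 9 Pax genes, grouped by subfamily, with the gene body (dark grey) and the window of 50 kb on either side (light grey line). The x axis is the distance in kb from the outermost start site in the direction of transcription. Pax2, Pax5 and Pax7 are covered over most of the window, Pax1, Pax3, Pax4 and Pax6 around the start and over part of the gene, and Pax8 and Pax9 carry scattered sites of at most 3271 bp.

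The promoters of the subfamilies that split are shown so that covered and uncovered paralogues can be read side by side. The windows were not aligned to each other. The sequences are RefSeq promoter windows of GRCm38.p6, 250 bases before to 50 bases after a RefSeq start, written 5′ to 3′ along the gene, with CpG dinucleotides in capitals. Such windows were matched for 7 of the 9 genes, and Pax3 and Pax4 had no entry.
Pax1 promoter, chr2:147364744-147365043, plus strand: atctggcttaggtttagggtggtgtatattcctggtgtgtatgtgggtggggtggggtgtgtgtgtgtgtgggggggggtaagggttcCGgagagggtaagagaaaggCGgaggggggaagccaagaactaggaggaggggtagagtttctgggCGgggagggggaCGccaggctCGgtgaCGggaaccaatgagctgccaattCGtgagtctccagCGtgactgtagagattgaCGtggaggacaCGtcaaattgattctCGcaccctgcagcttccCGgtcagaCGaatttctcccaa
Pax9 promoter, chr12:56695221-56695520, plus strand: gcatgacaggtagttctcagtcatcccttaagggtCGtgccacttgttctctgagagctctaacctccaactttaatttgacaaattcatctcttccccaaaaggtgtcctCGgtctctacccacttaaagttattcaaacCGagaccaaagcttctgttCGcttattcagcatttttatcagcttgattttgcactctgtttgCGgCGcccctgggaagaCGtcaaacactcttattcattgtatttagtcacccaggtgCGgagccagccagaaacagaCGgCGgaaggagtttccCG
Pax2 promoter, chr19:44756656-44756955, plus strand: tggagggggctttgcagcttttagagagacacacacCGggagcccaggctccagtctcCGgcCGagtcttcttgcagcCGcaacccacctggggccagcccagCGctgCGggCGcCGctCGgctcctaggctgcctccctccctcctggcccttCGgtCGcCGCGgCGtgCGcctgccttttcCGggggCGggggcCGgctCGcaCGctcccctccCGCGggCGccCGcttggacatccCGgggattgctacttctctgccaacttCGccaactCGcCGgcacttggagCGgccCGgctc
Pax5 promoter, chr4:44710645-44710944, minus strand: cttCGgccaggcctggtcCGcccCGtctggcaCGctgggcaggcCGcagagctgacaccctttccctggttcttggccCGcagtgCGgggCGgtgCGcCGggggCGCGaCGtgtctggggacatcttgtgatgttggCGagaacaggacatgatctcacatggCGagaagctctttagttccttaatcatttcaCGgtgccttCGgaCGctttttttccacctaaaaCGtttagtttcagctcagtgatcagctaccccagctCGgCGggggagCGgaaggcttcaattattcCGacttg
Pax8 promoter, chr2:24475550-24475849, minus strand: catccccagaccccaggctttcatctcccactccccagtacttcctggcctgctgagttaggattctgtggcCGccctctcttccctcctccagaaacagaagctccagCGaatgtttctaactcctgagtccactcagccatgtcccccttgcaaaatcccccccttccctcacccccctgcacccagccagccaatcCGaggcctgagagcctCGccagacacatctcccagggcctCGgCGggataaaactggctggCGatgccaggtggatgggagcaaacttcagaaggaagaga

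The Pax1 window holds 13 CpGs and the Pax9 window 11, against a median of 7 over 32851 RefSeq promoters. Both windows are at starts inside the gene, chr2:147364994 for Pax1 and chr12:56695471 for Pax9, downstream of the outermost starts. All 300 bases of the Pax1 window lay in a site of 10902 bp, whereas no base of the Pax9 window lay in a site and the nearest was 3872 bp away. At the outermost start of Pax9, a site of 200 bp ended 419 bp before it. Within 500 bp of the outermost starts there were 41 CpGs at Pax1 and 50 at Pax9. How the CpG numbers relate to the sites was not tested.

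The Pax2 window has 30 CpGs and the Pax5 window 23, and both lay whole in sites, of 91280 bp and 21976 bp. The Pax8 window has 7 CpGs, and 147 of its 300 bases lay in a site of 305 bp. RefSeq also lists starts of Pax2 with 23 and 7 CpGs in their windows, the latter upstream of the outermost GENCODE start and inside a neighbouring site of 23079 bp. Both windows of Pax6 (18 and 16 CpGs) and that of Pax7 (17 CpGs) were wholly inside sites as well.

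Both strands of these windows were searched for 3 short motifs, none of which contains another. The GC box GGGCGG occurred in 6 of the 10 windows (35.7% of all promoters have it), in those of Pax1, Pax7 and Pax8, in the window of Pax5, where it occurred 2 times, and in the 2 windows of Pax2 inside the 91280 bp site. CCAAT occurred in those of Pax1, Pax8 and the first window of Pax6 (37.4% of all promoters). TATAAA was found in none of the 10 (13.6% of all promoters). The GC box and CCAAT thus occurred in the window of Pax8 as in that of Pax1, and the window of Pax9 had none of the 3 motifs.

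The subfamily of Pax1 and Pax9 makes proteins with a paired domain and no homeodomain, and both genes act in the sclerotome, the part of the somite that gives the vertebral column. Pax1 (chr2:147361925-147393295, plus strand) had all 3 of its start positions inside 1 site of 10902 bp. The site ran from 4007 bp before to 6894 bp after the outermost start. Sites covered 92.3% of the start windows, 46.1% of the gene body and 18.3% of the gene with its flanks. Within the annotated gene body, the sites lay in the 5′ part. When the body was cut into 3 parts of equal length, 88.0% of the first, 50.5% of the middle and 0% of the last part were covered. The uncovered end is annotated only by a transcript with a retained intron, and all 6 exons of the protein-coding Pax1 transcripts lay inside sites. Of the 50 kb before Pax1, 19.1% was covered, largely by the main site and by 5 sites of 200 to 1377 bp that lined up close to it, and of the 50 kb after it, 0%.

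Pax9 (chr12:56691767-56712822, plus strand), which is also needed for teeth and for organs of the pharyngeal pouches, had none of its 3 start positions in a site. The only site within 1 kb was 200 bp wide, the smallest width in the list, and ended 419 bp before the outermost start. The other 2 start positions were 4291 and 4381 bp from the nearest site. No base of the gene body was covered, and none of its 5 exons was touched. In the gene with its flanks 6 sites covered 3.001%, slightly under the median of all protein-coding genes, 3.81%. The widest of them, 2057 bp, lay from 12322 to 10266 bp before the start, and 3 of the 6 were of the smallest width.

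Wide sites were also found at genes near this pair. Nkx2-9, a homeobox gene 78482 bp from Pax9, had a site of 10941 bp at its start, and its body was covered in full. The wide H3K27me3 domain of that neighbourhood thus ended before Pax9. On the other side, Slc25a21, a mitochondrial carrier gene whose annotated end overlaps that of Pax9, had a widest site of 1427 bp at its starts and 0.838% of its body covered. Beside Pax1, the nearest protein-coding genes were Nkx2-2 (167681 bp away, widest site at the start 20952 bp) and Foxa2 (649581 bp away, 17907 bp), both developmental transcription factors.

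**Figure D2:**
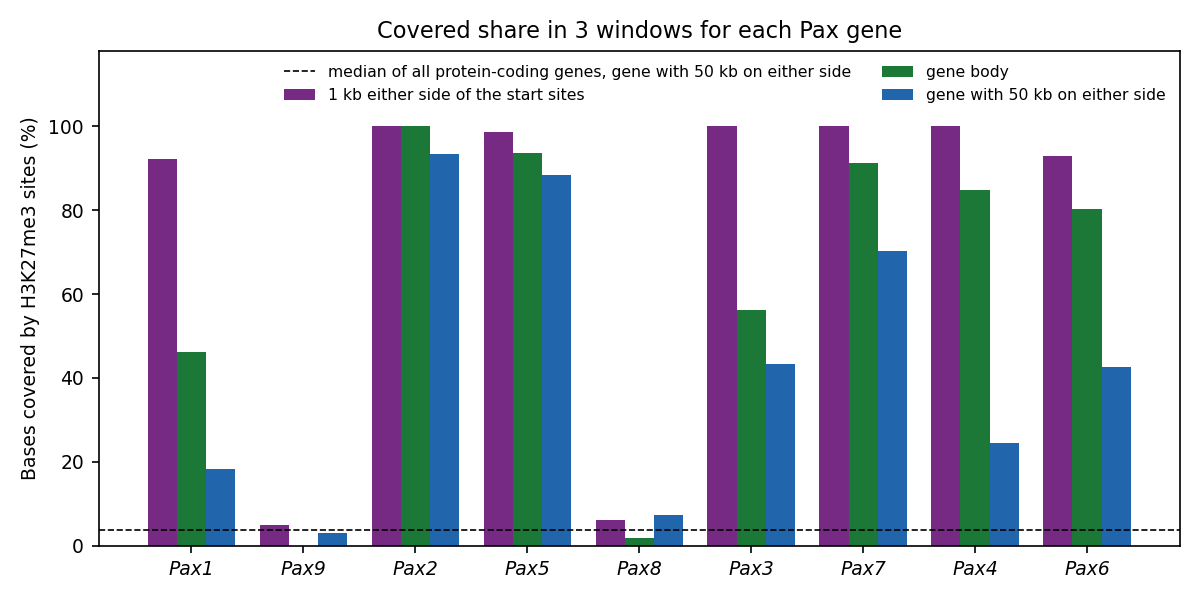
Share of bases covered by H3K27me3 sites (y axis, percent) in the 3 windows of each Pax gene, ordered by subfamily on the x axis: 1 kb either side of the start sites (purple), gene body (green) and gene with 50 kb on either side (blue). The dashed line is the median of all protein-coding genes for the last window, 3.81%. Bars of Pax8 and Pax9 are all under 10%, and those of the other 7 genes lie between 18.3% and 100%.

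The subfamily of Pax2, Pax5 and Pax8 held the most covered gene of the family and the one covered least after Pax9. Pax2, needed for the kidney, the optic nerve and the boundary of midbrain and hindbrain, lies at chr19:44756045-44837871 on the plus strand. A single site of 91280 bp, the widest of all 153983 sites, began 1551 bp before the outermost start and ended 89728 bp after it, beyond the end of the gene. The start windows, the gene body and all 11 exons were covered in full. Upstream, 2 further sites of 23079 and 14972 bp followed with little space between them, and 96.0% of the 50 kb before the gene and 79.5% of the 50 kb after it lay in sites. With its flanks, 93.3% of Pax2 was covered, which placed it 25th among all protein-coding genes. Joining sites closer than 1 kb gave a domain of 222728 bp made of 15 listed sites, 132999 bp before and 89728 bp after the start.

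The wide cover at Pax2 stopped short of the adjacent protein-coding genes. Neither Hif1an, which encodes an inhibitor of hypoxia-inducible factor, nor Slf2 had a site within 1 kb of a start. The bodies of these 2 genes were covered at 0% and 0.706%. The non-coding genes around Pax2 that lie inside the domain, such as the antisense genes Gm20395 and 1700039E22Rik, were covered in full.

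Pax5, which commits lymphoid progenitors to the B cell lineage, lies at chr4:44524757-44710487 on the minus strand and is the longest gene of the family. All of its 7 start positions lay in sites, but not in the same one. The 5 upstream starts were under a site of 21976 bp, and the 2 internal starts under sites of 3257 and 1949 bp. The body was crossed by 23 sites and covered at 93.5%. The cover was even along the gene, with 98.0%, 89.1% and 93.4% in its first, middle and last part. Of the 40 sites in the gene with its flanks, 9 were at least 10 kb wide, the highest number in the family, and the median width was 4391 bp against 455 bp over the whole list.

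The cover of Pax5 differed from that of Pax2 in how it was cut into sites. Its 23 uncovered stretches had a median length of 310 bp, the shortest 87 bp and the longest 2985 bp, and 21 of them were under 1 kb. Repeats as marked in the genome sequence made up 44.3% of the bases in these gaps, against 17.9% of the bases in sites of this locus. How many reads could be placed in these repeats was not tested. Joined at under 1 kb, the domain over the outermost start was 130487 bp long, and joined at under 5 kb, 277778 bp, with 40 listed sites in it. Zcchc7, 45389 bp away, had a widest site of 363 bp at its starts, and Melk, 160081 bp away, had none.

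Pax8, required for the follicular cells of the thyroid and active in the kidney together with Pax2, lies at chr2:24420560-24475599 on the minus strand. None of its 7 start positions was in a site. The 5 upstream starts were 104 to 606 bp from a site of 305 bp that lay before the gene. A second site of 458 bp was 915 bp from an internal start of a non-coding transcript. Sites covered 6.01% of the start windows, 1.76% of the body and 7.33% of the gene with its flanks. Of the 12 exons of protein-coding transcripts, 1 lay wholly in a site and 10 were outside of any. The 15 sites of the window had a median width of 345 bp, and the widest, of 3271 and 3102 bp, lay beyond the 3′ end of the gene. The second of these was at a start of Psd4, the next gene, 5605 bp away. Of Pax8 itself no wide domain was seen, and with sites closer than 5 kb joined no site covered its outermost start either.

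Pax3 and Pax7 encode proteins with both a paired domain and a homeodomain. Pax3 acts in the neural crest and in migrating muscle progenitors, and Pax7 marks the satellite cells of muscle. Pax3 (chr1:78101267-78197134, minus strand) had its 3 start positions under 1 site of 28186 bp, which reached from 18128 bp before to 10057 bp after the outermost start. The start windows were covered in full and the body at 56.1%. The body held 33 sites, the highest number in the family. The median width of the 43 sites in the gene with its flanks was 637 bp, and 9 of them, the main site included, were at least 2 kb wide. The covered share fell along the gene, from 80.6% in the first part to 71.7% in the middle and 16.2% in the last. The last exon was covered at 11.7%, while 6 of the 8 exons lay wholly in sites. Upstream, 59.9% of the 50 kb was covered, and downstream 2.27%.

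Pax7 (chr4:139737062-139833528, minus strand) is about as long as Pax3 and was covered more evenly. Both of its start positions lay in a site of 43850 bp, which placed it 45th among all genes by the widest site at a start. Another 2 sites, of 22688 and 21958 bp, followed inside the gene. The body was covered at 91.2%, with 97.8%, 94.1% and 81.6% in its 3 parts, and the gene with its flanks at 70.2%. Joined at under 1 kb, the domain was 114546 bp long for Pax7 and 37733 bp for Pax3. Joined at under 5 kb, it was 143362 bp for Pax7 and 102834 bp for Pax3, so the difference in length depended on the joining distance.

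Outside these genes, Sgpp2, 113210 bp from Pax3, had a site of 9114 bp at a start, and Epha4, an ephrin receptor gene 586178 bp away, had none. At Pax7, the taste receptor gene Tas1r2 had a widest site of 276 bp at its start and Klhdc7a had none. Of their bodies, 31.0% was covered at Tas1r2 and 0% at Klhdc7a.

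Pax4 and Pax6 also carry both DNA-binding domains. Pax4 acts in the precursors of beta and delta cells of the pancreatic islet, and Pax6 in the eye, the forebrain and the islet. Pax4 (chr6:28442334-28449353, minus strand), the shortest gene of the family, had all 4 start positions in 1 site of 9296 bp. This site ran from 3344 bp before to 5951 bp after the outermost start and so covered 84.8% of the gene. The share was 100% in the first and middle part and 54.4% in the last, where the last exon was left uncovered. Another 9 sites of 286 to 1468 bp lay within the 15098 bp before the start. With its flanks, Pax4 was covered at 24.4%.

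The wide site at Pax4 lay between genes without one. Fscn3, 3711 bp away, and Gcc1, Arf5 and Snd1, all within 50 kb, had no site within 1 kb of a start. Zfp800, a zinc finger gene 44328 bp away, had one of 7232 bp at a start, the second widest site in the Pax4 window.

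Pax6 (chr2:105668900-105697364, plus strand) had the largest number of annotated starts, and 23 of its 24 start positions lay in sites. The site over the outermost start was 30370 bp wide, from 21062 bp before to 9307 bp after it. The 12 most upstream starts were in this site, and the internal starts were in sites of 5505, 6008 and 1995 bp. The single start outside, that of a protein-coding transcript, was 184 bp from the nearest site. The body was covered at 80.2% and the gene with its flanks at 42.7%, the median of the family in both windows. The last exon was not covered, and the share of the last part of the gene was 51.7%. The 50 kb upstream were covered at 62.6% and the 50 kb downstream at 1.44%.

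A pair of non-coding genes share the upstream domain of Pax6. Paupar, a long non-coding RNA gene 7556 bp away, lay wholly within the 30370 bp site. Pax6os1, antisense to the start of Pax6, was covered at 36.5% over its 134251 bp. On the other side lies Elp4, a subunit gene of the Elongator complex. Its 3′ end is 3662 bp after Pax6, and its outermost start is at the far end of its 203538 bp. Elp4 had no site within 1 kb of a start and 0.550% of its body covered.

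In the gene bodies, 8 of the 9 genes had a site (all genes 46.7%), and 7 had more than 40% of the body covered (all genes 11.3%). Each of the 9 had a site in the gene with its flanks, as had 88.0% of all genes. The median of the 9 genes was 80.2% for the body and 42.7% for the gene with its flanks, against 0% and 3.81% over all genes.

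Over the family, the start site was the most covered point. In steps of 5 kb from the outermost start, the mean covered share of the 9 genes was 75.8% in the step before and 77.8% in the step after it, with 7 of 9 genes over 50%. For all protein-coding genes the means were 13.7% and 14.0%. Away from the start the Pax mean was 22.1% at 45 to 50 kb upstream and 48.1% at the same distance downstream. The downstream value comes from long genes in large part, since Pax2, Pax3, Pax5 and Pax7 are longer than 50 kb and Pax8 is the only other gene that is.

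**Figure D3:**
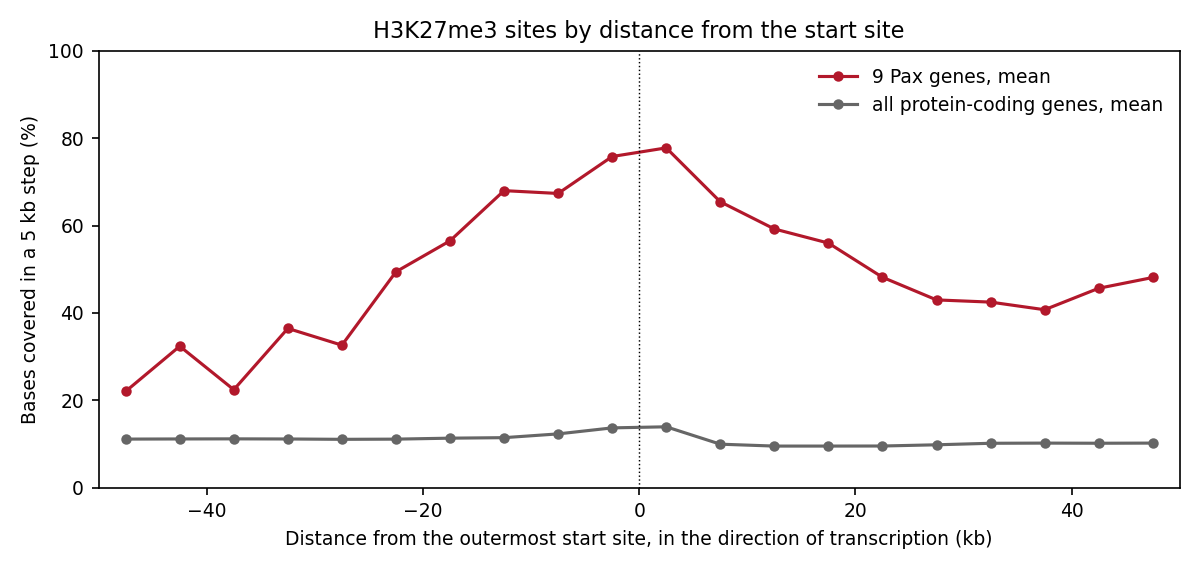
Mean share of bases covered by H3K27me3 sites (y axis, percent) in 5 kb steps from 50 kb before to 50 kb after the outermost start site (x axis, kb), for the 9 Pax genes (red) and all 21938 protein-coding genes (grey). The Pax mean peaks at 77.8% just after the start, where the mean of all genes is 14.0%.

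The cover ended differently on the 2 sides of the genes. The 50 kb upstream was covered more than the 50 kb downstream at 7 genes (Pax1, Pax2, Pax3, Pax4, Pax6, Pax7 and Pax9), and less at Pax5 (72.4% against 84.6%) and Pax8 (7.03% against 13.8%). The share of all protein-coding genes with more cover upstream was not computed, so this count cannot be read as a trait of the family. The gap was widest at Pax6 and Pax3. Among the 7 covered genes, the share of the last part of the body was lower than that of the first at Pax1, Pax3, Pax4, Pax5, Pax6 and Pax7 and equal at Pax2, where both were 100%. At Pax1 the last part holds no exon of a protein-coding transcript. How many of all protein-coding genes show such a fall was not counted.

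Pooled over the family, sites of the Pax genes were wider than those of the whole list, but not at each gene. The median width of the 206 sites was 879.5 bp against 455 bp, 32.0% of them were at least 2 kb wide against 11.3%, and 8.74% at least 10 kb against 0.944%. Sites of the smallest width, 200 bp, made up 6.80% against 12.6%. Of the 18 Pax sites of at least 10 kb, 9 were at Pax5, 3 each at Pax2 and Pax7 and 1 each at Pax1, Pax3 and Pax6. Pax4, Pax8 and Pax9 had none. Pax5 also gave 23 of the 66 sites of at least 2 kb, and the median widths at Pax4 (452.5 bp), Pax8 (345 bp) and Pax9 (284.5 bp) were below that of the whole list.

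By covered share of the gene with its flanks, the order was Pax2, Pax5, Pax7, Pax3, Pax6, Pax4, Pax1, Pax8 and Pax9. With 1 list there is no spread over samples to set beside these shares. Pax3 and Pax6 were neighbours in this order at 43.4% and 42.7%, and Pax2 and Pax5 at 93.3% and 88.3%. Among all 21938 genes Pax5 was placed 39th, Pax7 219th, Pax3 1205th, Pax6 1251st, Pax4 3330th, Pax1 4577th, Pax8 8588th and Pax9 11797th. The order by the widest site at a start was another one, with Pax7, Pax6, Pax3, Pax5, Pax1, Pax4, Pax8 and Pax9 after Pax2. For Pax1 and Pax4, 79.1% and 84.8% of all genes had a covered share with flanks as low as theirs or lower. By the widest site at a start, 96.6% and 95.8% of all genes had one as narrow as theirs or narrower.

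**Figure D4:**
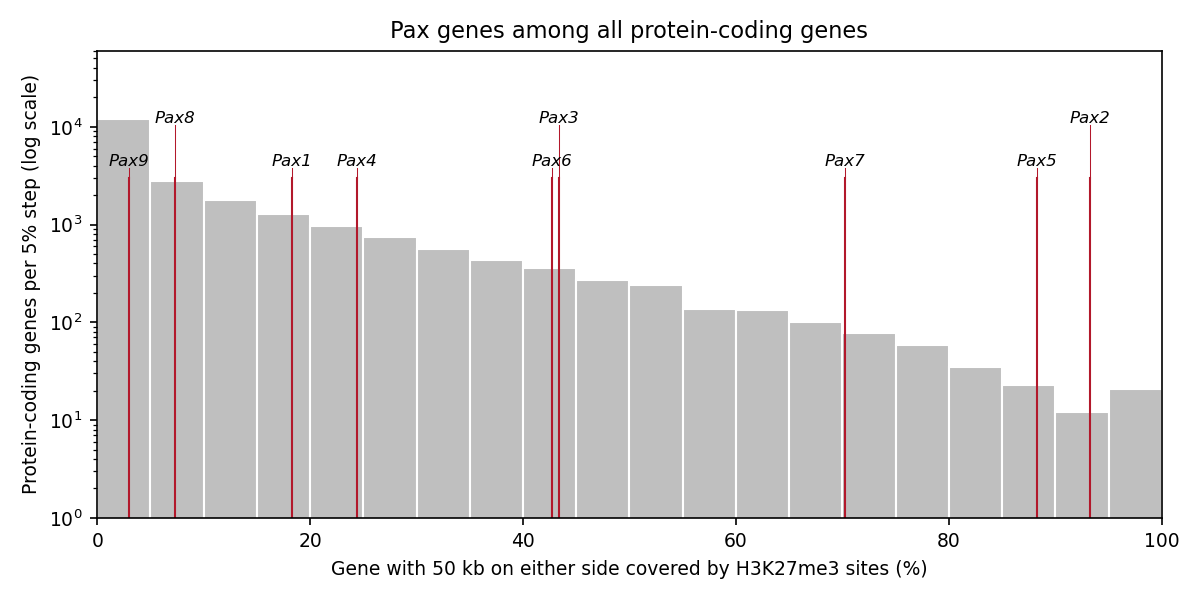
Number of protein-coding genes (y axis, log scale) by the share of the gene with 50 kb on either side that was covered by H3K27me3 sites (x axis, percent, steps of 5%), with the 9 Pax genes as red lines. Pax2 and Pax5 stand at 93.3% and 88.3%, where few genes lie, and Pax9 stands at 3.001%, within the tallest bar.

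The genes with a share of the same size as that of Pax2 came from several families. Just above it were C1qa (95.0%), En2 (94.3%) and Hoxb3 (93.7%), and just below it Syt3 (93.2%), Clec4f (92.7%) and C1qc (92.5%). En2 and Hoxb3 are homeobox genes of the embryonic brain and body axis, C1qa and C1qc are adjacent genes for complement subunits, Syt3 encodes a synaptotagmin and Clec4f a lectin of liver macrophages. In all 7 genes the start windows were covered in full, but the widest site at a start was 91280 bp in Pax2 and 19004 to 78687 bp in the other 6.

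CpG-rich starts were found among covered and uncovered members alike. Starts were taken as CpG-rich where the sequence within 500 bp had a GC content of 50% or more and 0.6 or more of the CpGs that its C and G content predicts. This held at Pax1, Pax2, Pax3, Pax7 and Pax9. This ratio of observed to predicted CpGs was 0.631 at Pax9, with 50 CpGs and no wide site, and 0.638 at Pax7, under a site of 43850 bp. At the other end, Pax4 had 3 CpGs and a ratio of 0.0517 and yet lay under a site of 9296 bp, and Pax8 had 18 CpGs and a ratio of 0.221. Pax5 and Pax6 missed the definition with 47.2% GC and a ratio of 0.568, respectively.

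Within each locus, the sites lay in the part richer in G and C. The GC content was higher in sites than outside of them at all 9 loci, from 52.1% against 49.9% at Pax7 to 49.2% against 38.7% at Pax2. Repeats took a smaller share inside sites than outside at 8 loci and a slightly larger one at Pax9 (32.2% against 29.5%). No locus had an undetermined base, so no gap in the sequence lies in the uncovered loci of Pax8 and Pax9. Repeats made up 18.9% of the Pax8 locus, the lowest share in the family, and 29.5% of the Pax9 locus, the highest. None of the 9 loci aligned over 10 kb or more to any of 74 patch sequences of the assembly. Shorter alignments, of at least 1 kb at 95% identity or more, numbered 23 at Pax1, 11 at Pax3 and 8 at Pax5. The other loci had none of these.

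The label of the cells was looked at through the sites of marker genes, since the list carries no transcript level. Of 12 fibroblast markers, 4 had a site within 1 kb of a start and 0 had one of at least 2 kb, the widest being 534 bp at Prrx1. Of 8 genes used in every cell, 2 had a site and 0 a wide one. These were Actb, with a widest site of 1350 bp and 43.5% of its body covered, and Eef1a1, with 330 bp and 6.11%. The median body share of the 8 genes was 0%. The body share of Actb was over the 40% that 7 Pax genes passed, and close to the 46.1% of Pax1. A body share over 40% alone therefore does not set a Pax gene apart from a gene used in every cell. Of 9 genes of other cell types 4 had a site, 3 of at least 2 kb. Over all protein-coding genes the shares were 31.5% for any site and 16.1% for one of at least 2 kb, so the share of fibroblast markers with any site was close to that of all genes, and these counts do not check the label by themselves.

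Genes known to work with Pax genes were covered unevenly. Of 38 such genes in 7 lists, 28 had a site within 1 kb of a start (all genes 31.5%), 22 one of at least 2 kb (all genes 16.1%) and 13 one of at least 10 kb (all genes 3.82%). The partners of Pax4 and Pax6 in the islet and lens were wide throughout, since all 6 (Nkx2-2, Nkx6-1, Pdx1, Neurod1, Sox1 and Sox2) had a site of at least 2 kb, 3993 bp at Sox2 the narrowest and 20952 bp at Nkx2-2 the widest. Sclerotome and tooth genes had one in 5 of 6 cases, with 54442 bp at Uncx. The exception was Meox1, without a site.

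In the eye and kidney network around Pax2, 5 of 11 genes had a site of at least 2 kb: Six2, Eya2, Ret, Wt1 and Lhx1. Six4, Eya1, Gdnf and Osr1 had no site within 1 kb of a start, so the paralogues Eya1 and Eya2 stood apart. Of the thyroid genes linked to Pax8, Nkx2-1 and Foxe1 had sites of 13078 and 14399 bp, Tg had a widest site of 1280 bp, and Hhex had none. The lack of a wide domain at Pax8 was thus not shared by 2 of these 4 genes.

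Among the muscle genes linked to Pax3 and Pax7, Myod1 and Lbx1 had sites of 14344 and 18394 bp, and Myf5 and Met had none. Of the neural crest genes, Sox10 had one of 20781 bp and Msx1 one of 4092 bp, and Mitf and Msx2 only short ones, of 282 and 553 bp. The B cell genes downstream of or beside Pax5 carried no site of 2 kb at a start. Blnk had one of 1060 bp, and Ebf1 and Cd79a had none within 1 kb, although Ebf1 and Pax5 act together in B cells. Away from the starts, Blnk was covered at 68.4% of its body and 56.4% of the gene with its flanks, and Cd79a at 0% and 42.4%, while Ebf1 was covered at 1.55% and 1.51%.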

How the data were processed

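H3K27me3 ChIP-seq data of iMEF cells were used in the form of 1 list of sites. According to the study's methods, the authors trimmed the reads, aligned them with BWA to mm10 (GRCm38.p6), filtered them with SAMtools, merged replicates with Picard and called broad peaks with MACS. The deposited list unites the peaks of all samples, and its values are positions (chromosome, start, end) with no count, score or p-value. The threshold, the program versions and the rule for uniting peaks are not given in the sources used here. Whether peaks were called per library or on merged replicates is not stated either. Since peaks of all samples were united, a site may be wider than in any single sample.

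Positions were taken as 0-based and half-open, since the shortest sites then measure exactly 200 bp, and are printed 1-based. Sites were intersected with GENCODE M21 genes of GRCm38.p6 (the study used a later release) using Python 3.11.15, numpy 2.4.6 and pandas 2.3.3, and the functions were tested on simulated intervals. No share or width has an error, since there is 1 list. The covered share is the number of bases of a window in sites divided by its length. Loci were compared with patch sequences using minimap2 2.31, and the genome was indexed with samtools 1.23.1. Exons are those of protein-coding transcripts, overlapping ones joined.

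The genes named are the 9 members, the nearest protein-coding gene on either side and genes within 50 kb, the 3 genes above and below the most covered member that are over 500 kb from it, and the lists of partner and marker genes. Members and lists were chosen with earlier results of these data known. Some genes of the partner and marker lists are not reported here. No test was made, since there are no values per library. The number of columns with values per sample that were not used was 0.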

Additional observations from a re-analysis of the deposited data

How the results depend on the processing

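All 9 Pax genes had a site within 1 kb of a start, and 7 of them one of at least 2 kb, with windows of 500 bp or 2 kb, with only the outermost start or only starts of protein-coding transcripts, with sites closer than 1 kb or 5 kb joined, and with positions counted from 1. With only sites of at least 500 bp or 1 kb, Pax8 and Pax9 lost theirs and both counts were 7. The median covered share of the bodies was 78.7% to 85.5%, and that with flanks 36.5% to 56.2% with 50 kb and 55.5% or 30.2% with 10 or 100 kb. Of 225 values of single genes recomputed, 60 moved by over 1.5 times. These were mostly the widths and numbers of joined sites, among them the joined domains, and the values of Pax8 and Pax9. With only sites of at least 1 kb, the share with flanks fell from 7.33% to 4.11% for Pax8. For Pax9 it fell from 3.001% to 1.70%. Joining sites closer than 5 kb raised the body share of Pax3 to 85.5%. No paired analysis was possible because replicates cannot be told apart in a united list, and this also kept any replicate from being left out.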

Other observations

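Some non-coding genes that overlap a Pax gene lay under the same sites. AI646519, antisense to the start of Pax1, was covered at 94.6% and its widest site at a start was the 10902 bp site of Pax1. At Pax5, the antisense gene Gm12462 was covered at 97.4% and the microRNA gene Mir5120 in full, and Mir6405 in Pax2 was also covered in full. At the uncovered Pax genes, Gm15524 over the start of Pax9 had 6.56% of its bases in sites and no site within 1 kb of a start, and Gm13415 over Pax8 had 2.31%. Farther out, within 50 kb of covered Pax genes, the cover was mixed. Gm13954 (Pax6), Gm14110 and Gm14109 (Pax1) and Gm43264 (Pax4) were covered at 0%, and Nkx2-2os (Pax1) at 24.2%. AC138457.1 and AC131105.1 (Pax2), Gm12463 (Pax5) and Paupar (Pax6) were covered in full. Gm13418 near Pax8 was covered at 50.8%. The list has no strand, so a site over 2 overlapping genes cannot be assigned to either of them.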
